A study of Mus musculus with 10 samples.

Results

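A set of 10 genes that steer hepatocytes into or out of the cell cycle was followed over the day and across the liver lobule. They were chosen by symbol: Ccnd1, Myc, Ccng2, Btg1, Cdkn1a, Mdm2, Wee1, Gadd45a, Gadd45b and Gadd45g, which the tables write in lower case (ccnd1, myc, ccng2, btg1, cdkn1a, mdm2, wee1, gadd45a, gadd45b, gadd45g). All 10 were found among the 14812 gene entries of the deposited tables. The series holds 18378 single hepatocytes, the main cells of the liver parenchyma, from male C57BL/6 mice aged 3 months on regular chow with free access to food. Hepatocytes were freed by collagenase perfusion under ketamine and xylazine and purified on a Percoll gradient, and version 2 of the Chromium 3' chemistry of 10x Genomics gave the libraries. The groups differ in zeitgeber time (ZT, hours of the light-dark cycle): ZT0 and ZT12 have 3 libraries each (A, B and C), ZT6 and ZT18 have 2 (A and B). The labels name no genotype or agent that separates the groups, and they do not say how many mice gave a library, so p-values measure the spread between these libraries.

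Adult hepatocytes are mostly quiescent, yet they can re-enter the cell cycle when liver is lost. Cyclin D1, the product of Ccnd1, activates CDK4 and CDK6 and carries cells out of G1, and the transcription factor Myc drives growth genes. Cdkn1a encodes p21, a CDK inhibitor induced by p53 among other inputs, and Mdm2 encodes the ubiquitin ligase that degrades p53. Cyclin G2 (Ccng2) and Btg1 restrain proliferation, the Wee1 kinase holds CDK1 inactive before mitosis, and the Gadd45 proteins are stress sensors that bind p21, PCNA and the kinase MAP3K4. The liver lobule runs from the portal vein, where blood enters, to the central vein, and Wnt signals from the central vein set the pericentral programme.

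Levels are given as CPM, that is UMIs (distinct tagged molecules) scaled to 1 fixed library total, with SD over libraries. Libraries held 710 to 2860 cells and 1454623 to 7144803 UMIs in total, and their median cell had between 1588 and 2662 UMIs. Summed hepatocyte markers reached 31690 to 66860 CPM in every library, against 4.13 to 18.9 CPM for 8 endothelial markers and 0 to 11.2 CPM for 9 macrophage markers, of which Clec4f, Csf1r, C1qa and C1qb were at 0. Erythroid markers summed to 72.2 to 108 CPM in 8 libraries, 99.0 CPM in ZT18A and 360.5 CPM in ZT18B. The cells are named only by number in the tables, so barcodes shared between libraries could not be counted. A gene had to average at least 3 CPM to be tested. Of the 10 genes, 8 passed. Wee1, with 21 UMIs in all libraries together, and Gadd45b, with 37, did not and are described without a test.

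The start regions of 4 genes that passed a test below are printed for reference, because they carry matches to motifs of regulators the results touch. RefSeq windows of 250 bases before to 50 after a start site (GRCm38.p6) were at hand for 7 of the 10 genes, in 8 windows. Capitals mark the p53 consensus decamer in Cdkn1a and Gadd45a, the FoxO motif TGTTTAC in Btg1 and the E-box CACGTG in Gadd45g, with both strands searched. The windows are chr17:29090729-29091028 (plus strand, the upstream one of 2 windows for Cdkn1a), chr6:67037358-67037657 (minus strand), chr10:96616751-96617050 (plus strand) and chr13:51846425-51846724 (plus strand).
Cdkn1a: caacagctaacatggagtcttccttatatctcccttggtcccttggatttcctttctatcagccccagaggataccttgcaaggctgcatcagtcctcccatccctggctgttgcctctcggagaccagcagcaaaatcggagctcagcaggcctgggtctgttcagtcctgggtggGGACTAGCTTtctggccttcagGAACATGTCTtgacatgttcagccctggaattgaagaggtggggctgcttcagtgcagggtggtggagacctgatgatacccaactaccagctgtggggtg
Gadd45a: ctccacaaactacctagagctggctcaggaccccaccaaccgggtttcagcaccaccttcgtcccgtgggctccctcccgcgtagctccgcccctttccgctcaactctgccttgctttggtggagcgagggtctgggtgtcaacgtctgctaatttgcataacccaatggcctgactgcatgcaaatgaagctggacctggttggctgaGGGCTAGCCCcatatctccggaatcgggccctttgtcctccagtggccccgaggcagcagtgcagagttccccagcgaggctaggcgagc
Btg1: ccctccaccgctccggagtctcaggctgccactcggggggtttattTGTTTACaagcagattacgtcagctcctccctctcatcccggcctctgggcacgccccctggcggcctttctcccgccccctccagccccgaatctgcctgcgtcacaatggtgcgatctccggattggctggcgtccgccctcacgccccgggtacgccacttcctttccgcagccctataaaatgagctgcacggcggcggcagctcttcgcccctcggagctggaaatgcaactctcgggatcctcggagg
Gadd45g: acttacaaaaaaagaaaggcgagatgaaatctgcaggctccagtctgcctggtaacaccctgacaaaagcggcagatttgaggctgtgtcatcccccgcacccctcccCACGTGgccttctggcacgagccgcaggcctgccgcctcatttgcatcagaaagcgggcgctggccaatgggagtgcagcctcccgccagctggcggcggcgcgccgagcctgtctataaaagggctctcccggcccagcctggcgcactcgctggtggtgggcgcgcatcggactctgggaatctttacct
The upstream Cdkn1a window held 2 p53 decamers, GGACTAGCTT at -73 and GAACATGTCT at -51 from its start site. The other Cdkn1a window, from 29093519 to 29093818, held no match to any motif searched. Gadd45a held GGGCTAGCCC at -40, and Mdm2, not printed, held GAACTTGCCT at -186. Of 32851 windows of the same length, 8.36% held such a decamer. The E-box, the motif of the clock factors CLOCK and BMAL1 and also of Myc, stood at -142 in Gadd45g and at -185 in Gadd45b, and 7.15% of windows held it. The FoxO motif stood at -204 in Btg1 and at -153 in Mdm2, and 3.65% of windows held it. None of the 8 windows held the D-box (TTATGTAA or TTACGTAA), the RORE with its AT-rich extension or the CRE TGACGTCA, found in 1.06%, 0.219% and 1.79% of windows. A match is a description of the letters and was not tested as a binding site.

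The first comparison asked which of the genes vary with time when all cells of a library are summed. Cdkn1a changed in every comparison of times, and Myc differed among the 4 times, while its fit to a 24-h wave did not pass. By the quasi-likelihood test of edgeR, with p-values adjusted after Benjamini and Hochberg, 1 of the 8 tested genes had a 24-h rhythm (Cdkn1a), against 5.14% of all 8908 genes tested. Among the 4 times, 2 of 8 differed (Cdkn1a and Myc), against 6.58%. ZT12 against ZT0 gave 1 of 8 (Cdkn1a, lower), against 3.44% in both directions, 1.74% higher and 1.7% lower, and ZT18 against ZT6 gave 1 of 8 (Cdkn1a, higher), against 3.79% in both directions, 2.35% higher and 1.45% lower. The other genes are described by their levels, and the plot of levels by time shows all 10.

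**Figure D1:**
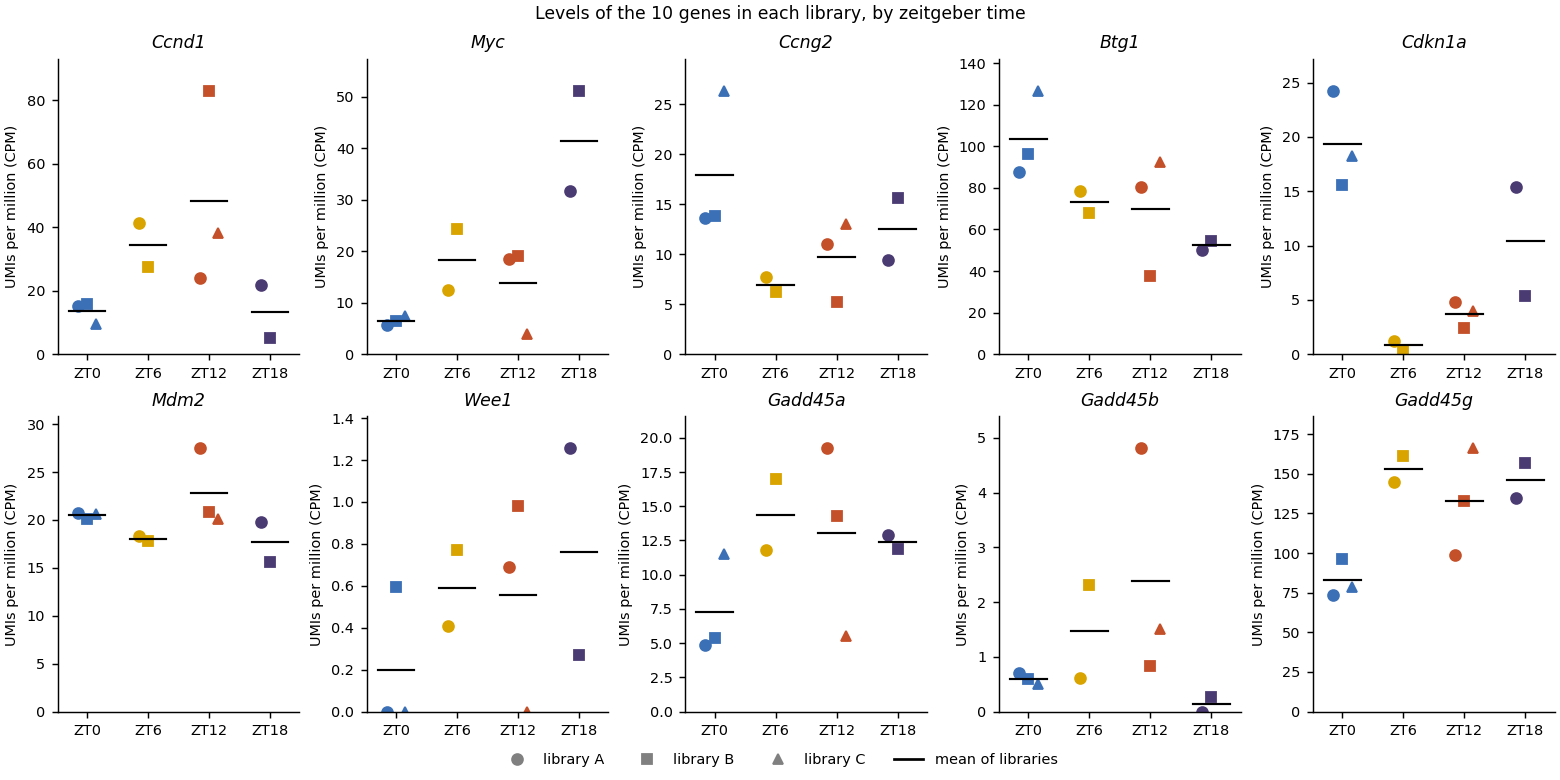
Level of each of the 10 genes in CPM (vertical axis, linear, separate scale for each gene) at the 4 zeitgeber times (horizontal axis). Each point is 1 library, its shape gives the library letter, and black lines are means of the libraries. Cdkn1a lies between 15.6 and 24.3 CPM at ZT0 and between 0.386 and 1.22 CPM at ZT6, and Myc is highest in both ZT18 libraries.

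Cdkn1a (chromosome 17, 29090976 to 29100727, plus strand, GRCm38, GENCODE M21) was highest at ZT0 and lowest at ZT6. It stood at 24.3, 15.6 and 18.2 CPM in ZT0 libraries A, B and C, and at 1.22 and 0.386 CPM in ZT6 A and B. Those ZT6 values rest on 6 and 1 UMIs, against 352 UMIs over the ZT0 libraries. At ZT12 it was 4.81, 2.38 and 4.02 CPM, and at ZT18 15.4 and 5.39 CPM. The order was therefore ZT0, ZT18, ZT12 and ZT6, and no neighbouring pair in that order overlapped.

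The fitted wave of Cdkn1a peaked at ZT 21.35, with a log2 amplitude of 2.03 and a peak-to-trough fold of 16.7 (edgeR adjusted p = 0.00684). With times every 6 h, a wave cannot be separated from a shorter pulse. ZT12 was 6.51-fold below ZT0 (log2 -2.70 ± 0.42 SE, adjusted p = 0.00231, n = 3 and 3). Libraries of the same letter at ZT0 and ZT12 share the plate column of their sample index, and within them the log2(CPM + 1) difference was -2.12 (A), -2.30 (B) and -1.94 (C). ZT18 was 11.5-fold above ZT6 (log2 3.53 ± 0.64 SE, adjusted p = 0.0104, n = 2 and 2). That call was lost without ZT6A (log2 4.65, 25-fold, adjusted p = 0.0999), without ZT6B (log2 3.16, adjusted p = 0.0937) or without ZT18A (log2 2.64, 6.22-fold, adjusted p = 0.103), where the lone library left is assumed to vary like the other groups. Both ZT18 libraries share 1 index column and both ZT6 libraries another, so that column and the time cannot be told apart there. The 4 cholangiocyte markers summed to 17.4 to 32.5 CPM at ZT0, 0.773 to 4.27 at ZT6, 3.44 to 6.53 at ZT12 and 11.6 to 17.3 at ZT18, an order of times like that of Cdkn1a. That sum was nearly all Sox9 (565 UMIs), while the defining duct markers Krt19, Krt7 and Epcam gave 2, 3 and 3 UMIs in all libraries together.

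Mdm2, itself a p53 target, passed no test between times. It was at 20.8, 20.1 and 20.6 CPM at ZT0, 18.3 and 17.8 at ZT6, 27.5, 20.9 and 20.1 at ZT12, and 19.8 and 15.6 at ZT18. All 4 means lie between 17.7 and 22.8 CPM, and only ZT12A stands above the rest. The log2 difference of ZT12 from ZT0 was -0.005 with a 95% interval of -0.44 to 0.43, and the rhythm had an adjusted p of 0.992 (edgeR). A change in Mdm2 of the size seen in Cdkn1a lies outside that interval.

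Ccng2, a cyclin linked to cell cycle arrest, had its highest mean at ZT0. It measured 13.6, 13.8 and 26.3 CPM at ZT0, 7.72 and 6.18 at ZT6, 11.0, 5.18 and 13.1 at ZT12, and 9.43 and 15.6 at ZT18. All 3 ZT0 libraries lay above every ZT6 and ZT12 library, and ZT18 overlapped ZT0 and ZT12. ZT12 stood at log2 -1.15 ± 0.35 SE from ZT0 (edgeR adjusted p = 0.0985), and the fitted wave peaked at ZT 21.62 with a log2 amplitude of 0.75 (adjusted p = 0.0828). With the library letter as a block, the ZT12 difference was -1.15 with an edgeR adjusted p of 0.0284. The block raised the calls over all 8908 genes from 306 to 504.

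Ccnd1 (chromosome 7, 144929931 to 144939925, minus strand) had its highest levels in the middle of the sampled day. It stood at 15.2, 15.8 and 9.62 CPM at ZT0, and at 41.2 and 27.4 at ZT6. At ZT12 it was 24.1, 83.0 and 38.2 CPM, and at ZT18 21.7 and 5.12 CPM. Every ZT6 and ZT12 library lay above every ZT0 and ZT18 library. ZT12B, the library with the most UMIs, was the highest by far, so ZT12 averaged 48.4 ± 30.8 CPM (SD, n = 3) against 13.5 ± 3.39 at ZT0.

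In the fit, Ccnd1 was 3.4-fold higher at ZT12 than at ZT0 (log2 1.77 ± 0.47 SE, 95% interval 0.77 to 2.77), with an adjusted p of 0.0554 by edgeR that misses the threshold. Without ZT12B it was 2-fold higher (log2 0.998, adjusted p = 0.286). Within same-letter pairs the log2(CPM + 1) difference was 0.63 (A), 2.33 (B) and 1.88 (C). With the letter as a block, the log2 difference was 1.80 and the edgeR adjusted p 0.0256. That fit passed 3 of the 8 genes (Cdkn1a, Ccnd1 and Ccng2) and 504 of all 8908, against 306 without the block. It also groups the ZT6 and ZT18 libraries by letter, although those did not pair (r = 0.033). The rhythm of Ccnd1 (log2 amplitude 1.09, peak at ZT 9.62) had an adjusted p of 0.0536. Summed markers of cycling cells (Mki67, Top2a, Ccnb1, Cdk1 and Birc5) were also highest in ZT12B, at 11.2 CPM against 2.16 to 6.02 CPM elsewhere, and their part in the Ccnd1 level was not tested. On the opposite strand the annotation places LTO1 over Ccnd1. Whether the authors counted by strand is not given in the sources used here, so reads of the pair may not be separable.

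Myc (chromosome 15, 61985391 to 61990374, plus strand) was highest at ZT18. It stood at 5.59, 6.39 and 7.43 CPM at ZT0, 12.4 and 24.3 at ZT6, 18.6, 19.2 and 4.02 at ZT12, and 31.8 and 51.2 at ZT18. Both ZT18 libraries lay above all 8 others, and ZT12C, with 8 UMIs, was the lowest of all. No other library has the index column of the ZT18 libraries, so that column and the time cannot be told apart for Myc at ZT18. The fitted means spanned 2.68 on the log2 scale, with an adjusted p of 0.0129 among the 4 times (edgeR). Its fitted 24-h wave had a log2 amplitude of 0.90 (adjusted p = 0.302). The call was lost without ZT18B (range 2.27, adjusted p = 0.133), and without both ZT18 libraries (range 1.39, adjusted p = 0.274).

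Single contrasts of Myc did not pass. ZT18 stood at log2 1.29 ± 0.49 SE from ZT6 (adjusted p = 0.165), and ZT12 at 1.05 ± 0.44 from ZT0 (adjusted p = 0.267). Without ZT12C the latter became 1.46 with an adjusted p of 0.0384. ZT18B, which held the most Myc, also held the most erythroid marker RNA (360.5 CPM), and the part of that in the Myc level was not tested. The summed immediate early and dissociation genes, a group that also answers to tissue handling, were at 648 to 684 CPM at ZT18, inside the range of the other times. Mitochondrially encoded genes took 19.3% and 21.5% of UMIs at ZT18, against 15.9% and 16.0% at ZT6, 16.5% to 18.1% at ZT0 and 12.9% (C) to 24.3% (A) at ZT12, and their part in the Myc level was not tested.

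Btg1, an antiproliferative partner of the CCR4-NOT deadenylase, was highest at ZT0. Its levels were 87.6, 96.3 and 126.8 CPM at ZT0, 78.4 and 68.0 at ZT6, 80.4, 37.5 and 92.4 at ZT12, and 50.0 and 54.7 at ZT18. ZT0 overlapped ZT12 and stood above ZT6 and ZT18. The rhythm had a log2 amplitude of 0.43 and an adjusted p of 0.213 (edgeR), and the difference among times an adjusted p of 0.123. Without ZT12B, the lowest library, the latter was 0.036.

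Gadd45g was lowest at ZT0 and Gadd45a had its lowest mean there. Gadd45g stood at 73.8, 96.0 and 78.8 CPM at ZT0, and at 99.0 to 166.2 CPM in the 7 libraries of the other times. ZT0 thus lay below all of them, while ZT6, ZT12 and ZT18 overlapped. Its difference among the 4 times had an adjusted p of 0.0902 in edgeR, 0.038 in edgeR with the library letter as a block and 0.0382 in DESeq2. That block also groups the ZT6 and ZT18 libraries by letter, although those did not pair (r = 0.033), so its value here is of limited weight. ZT12 lay at log2 0.53 ± 0.20 SE from ZT0 (edgeR adjusted p = 0.22).

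Gadd45a stood at 4.89, 5.35 and 11.5 CPM at ZT0, 11.8 and 17.0 at ZT6, 19.3, 14.3 and 5.52 at ZT12, and 12.9 and 11.9 at ZT18. ZT0 overlapped ZT12 only, and the adjusted p among times was 0.389. Gadd45b averaged 0.600 ± 0.096 CPM at ZT0 and 1.46 ± 1.21 at ZT6, then 2.39 ± 2.13 at ZT12 and 0.135 ± 0.19 at ZT18, on 37 UMIs in all, 7 of them in ZT12A. Wee1, a clock-controlled gene in mouse liver, gave 0 to 7 UMIs per library and averaged 0.198, 0.590, 0.556 and 0.764 CPM in the order of the times. A count of 0 in ZT12C allows up to 1.51 CPM of Wee1, so no daily course of it was detectable at this depth.

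**Figure D2:**
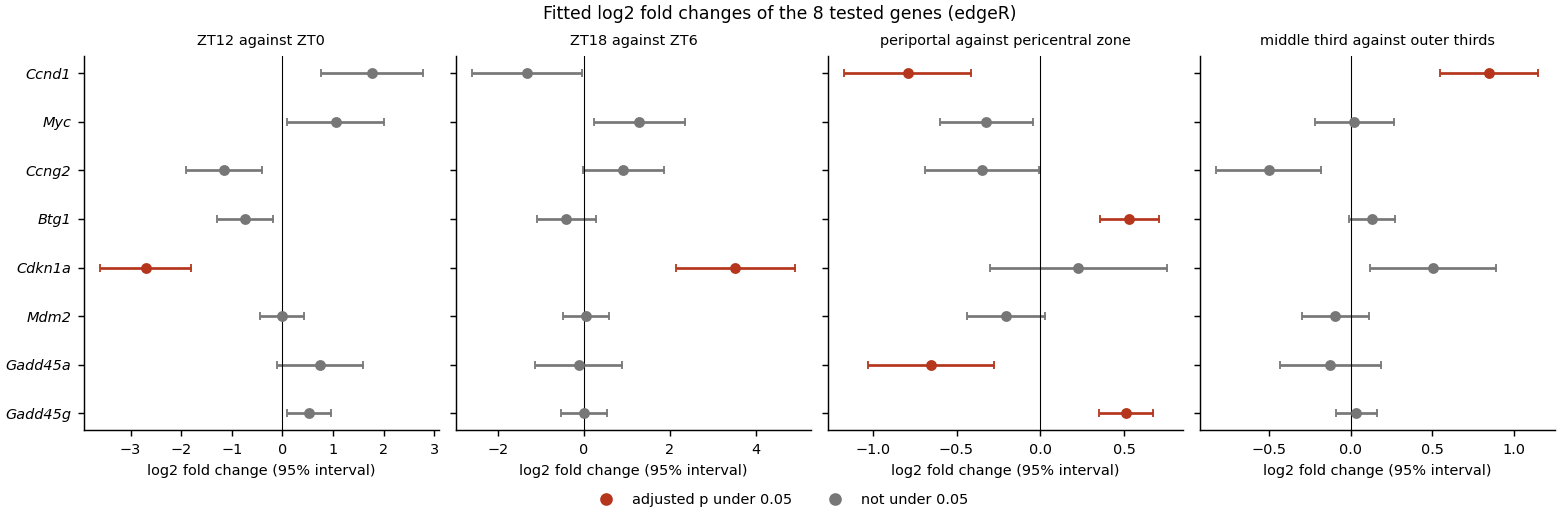
Fitted log2 fold changes (horizontal axis) of the 8 tested genes with 95% intervals, in 4 comparisons; red points have an adjusted p under 0.05. Cdkn1a is the one gene in red in both comparisons of times, while 4 genes are in red between zones and Ccnd1 alone in the middle zone.

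The next question was where along the lobule the genes are used. The cells of each library were ordered by 8 periportal and 8 pericentral landmark genes, none of them among the 10, and the order was divided into 3 equal parts, the pericentral, middle and periportal zones. Of the 8 tested genes, 4 differed between the periportal and the pericentral zone, against 24.6% of 8907 genes. Btg1 and Gadd45g were higher periportally (background 11.9%), and Ccnd1 and Gadd45a pericentrally (12.7%). Known Wnt targets of the pericentral zone served as a check of the order: Lgr5, Tbx3, Glul, Axin2 and Rnf43 were lower periportally, 5 of 6 tested. Their list summed over whole libraries to 181 to 866 CPM at ZT0, 216 to 274 at ZT6, 265 to 1375 at ZT12 and 99.4 to 182 at ZT18. Equal parts of the order may therefore not cover the same stretch of lobule in each library, which was not tested.

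Gadd45g (chromosome 13, 51846678 to 51848468, plus strand) was 1.42-fold higher in the periportal zone (log2 0.51 ± 0.08 SE, edgeR adjusted p = 4.08e-06). Its zones averaged 108 ± 31.5 CPM pericentrally, 125 ± 43.5 in the middle and 139.5 ± 33.7 periportally (SD, n = 10), and the periportal zone was higher in 9 of 10 libraries. Over 8 layers of the order its mean climbed from 99.8 CPM at the central end to 141.9 at the portal end. The exception was ZT18A, with 138.6 CPM pericentrally and 131.4 periportally.

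Btg1 (chromosome 10, 96617006 to 96622809, plus strand) had a gradient of the same direction. It was 1.44-fold higher periportally (log2 0.53 ± 0.09 SE, adjusted p = 8.38e-06), with 63.1 ± 21.7, 81.7 ± 30.8 and 86.5 ± 31.0 CPM from the pericentral to the periportal zone. The periportal zone was higher in 8 of 10 libraries. The 2 exceptions were the ZT6 libraries, with 80.4 and 75.3 CPM (A) and 75.0 and 71.7 CPM (B) in the pericentral and periportal zones.

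Gadd45a (chromosome 6, 67035096 to 67037457, minus strand) ran the other way from its paralog Gadd45g. It was 1.57-fold lower periportally (log2 -0.65 ± 0.19 SE, adjusted p = 0.0079), and the pericentral zone was higher in 10 of 10 libraries. Its zones averaged 15.6 ± 6.98, 10.9 ± 5.71 and 8.23 ± 4.49 CPM. In cells with at least 2000 UMIs alone, the log2 difference was -0.42 and the adjusted p 0.203. The annotation lists E230016M11Rik on the opposite strand of Gadd45a.

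**Figure D3:**
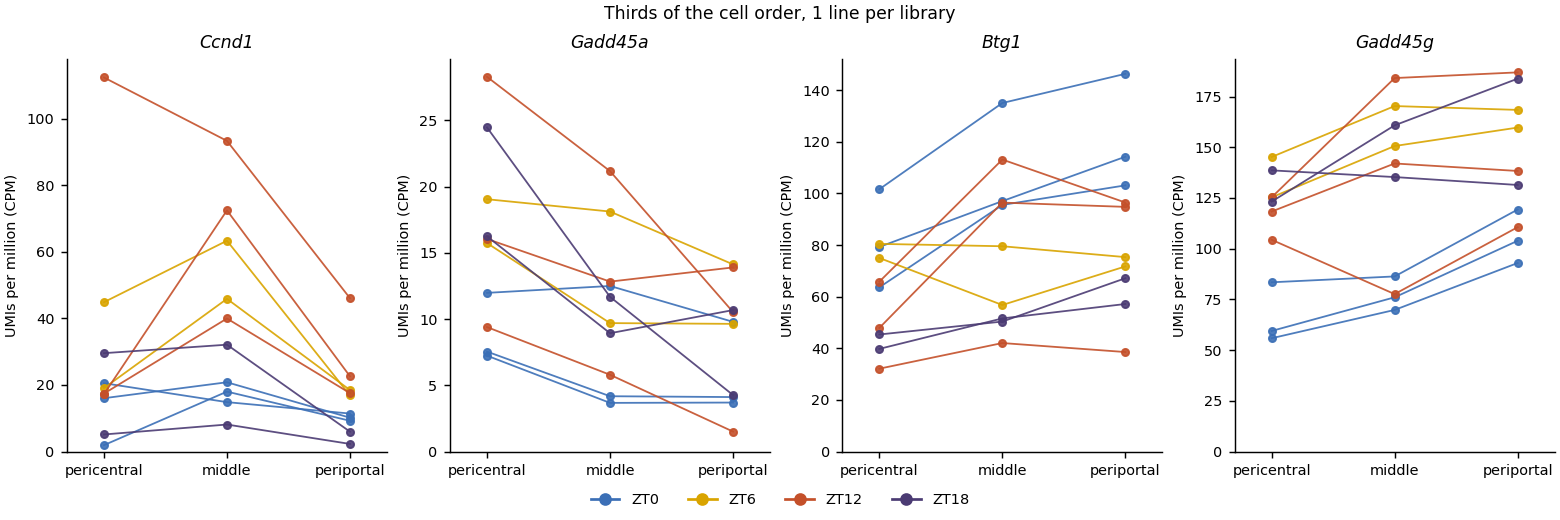
Level in CPM (vertical axis, linear) of the 4 genes that differed between zones, in the pericentral, middle and periportal zones of the cell order (horizontal axis). Each line is 1 library, coloured by time. Gadd45a is lower in the periportal than in the pericentral zone in all 10 libraries, Gadd45g is higher there in 9 of 10, and Ccnd1 is highest in the middle zone in 8 of 10.

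Ccnd1 had its highest levels in the middle of the lobule order, with lower levels toward both ends. Over the 8 layers from the central to the portal end its mean was 16.2, 29.1, 45.3, 44.6, 40.9, 22.4, 15.7 and 14.0 CPM. The layer with the highest level lay between layers 3 and 6 in 10 of 10 libraries, at all 4 times. In ZT0B, ZT6B and ZT12B it was layer 3, on the central side. The range of layers was not a planned comparison, so this count describes the profile and is no separate support. By zone Ccnd1 averaged 28.4 ± 31.8 CPM pericentrally, 40.9 ± 28.0 in the middle and 16.1 ± 12.2 periportally. The middle zone was the highest in 8 of 10 libraries, and ZT0B and ZT12B were highest pericentrally.

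This profile led to a test that was added after it had been seen, the middle zone against both outer zones. Ccnd1 was 1.8-fold higher in the middle (log2 0.85 ± 0.15 SE, 95% interval 0.55 to 1.15, edgeR adjusted p = 4.99e-04), and was the 1 gene of the 8 to pass. The background was 0.641% of 8894 genes in both directions and 0.528% higher in the middle, and Ccnd1 ranked 7 of 47 by size among the latter. Since the test was chosen for this profile, its p describes the profile and is not independent support. It held under all alternatives run, with log2 differences from 0.66 to 1.05. The middle cells had a median of 1607.5 to 2552.5 UMIs, against 1541 to 3089 in pericentral and 1577 to 2720 in periportal cells.

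The outer zones of Ccnd1 differed less firmly. The periportal zone was 1.73-fold below the pericentral one (log2 -0.79 ± 0.19 SE, adjusted p = 0.00138), lower in 7 of 10 libraries. Without ZT12B the adjusted p was 0.0581, between the outermost of 4 equal parts 0.0524, and by DESeq2 0.435 (log2 -0.48). At ZT12 its zones averaged 49.0, 68.6 and 28.8 CPM, and at ZT0 12.8, 17.9 and 10.3 CPM, with the middle highest at both times. The pericentral mean at ZT12 rests on ZT12B (112.4 CPM pericentrally, 46.1 periportally): in the other 2 ZT12 libraries the periportal zone was the higher one, by 0.011 (A) and 0.37 (C) on the log2(CPM + 1) scale.

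**Figure D4:**
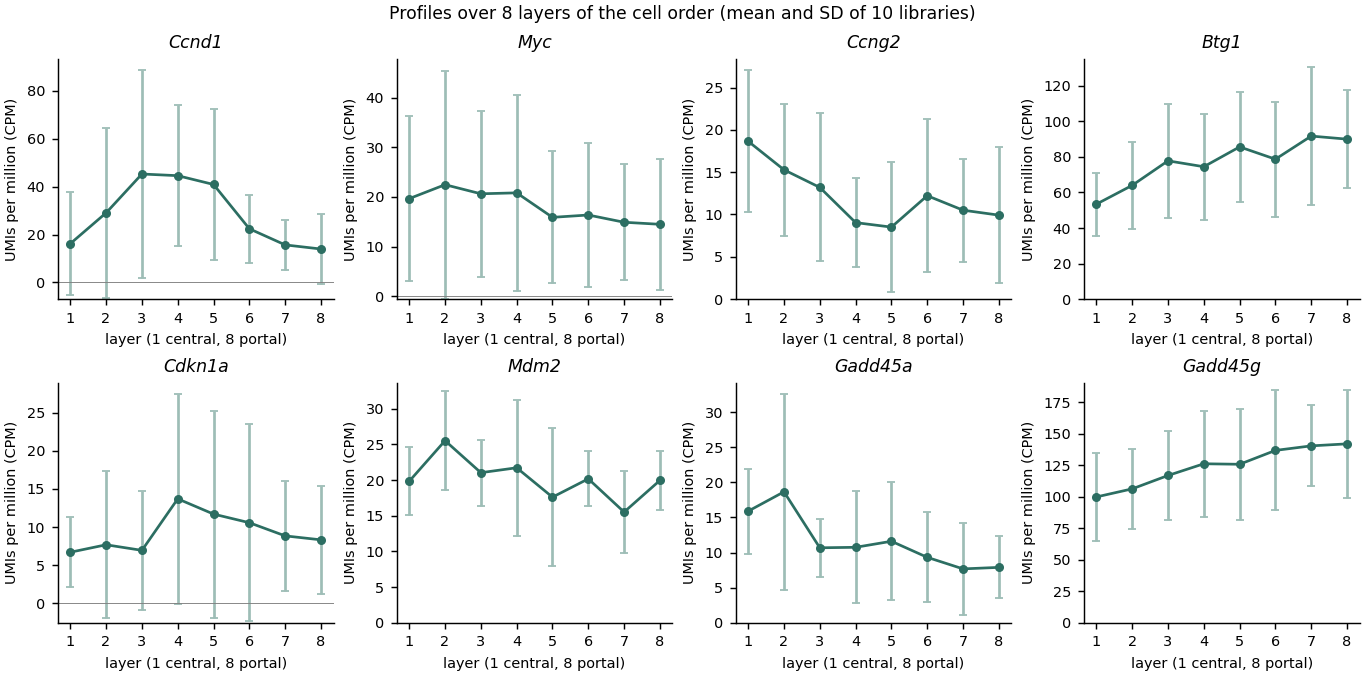
Mean level in CPM (vertical axis, linear) over 8 equal layers of the cell order (horizontal axis, 1 at the central end and 8 at the portal end) for the 8 tested genes; bars are SD over the 10 libraries, a spread that includes the differences between times. Ccnd1 reaches 45.3 CPM in layer 3 and 14.0 CPM in layer 8, Gadd45g climbs from 99.8 to 141.9 CPM, and Ccng2 is lowest in layer 5.

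The other 4 tested genes passed neither test of position. Ccng2 had its lowest level in the middle zone in 7 of 10 libraries, with 16.0 ± 7.57, 9.17 ± 5.99 and 11.2 ± 6.64 CPM. Its middle zone lay at log2 -0.50 ± 0.16 SE from the outer zones (adjusted p = 0.191). Myc was at log2 -0.32 ± 0.14 SE periportally (adjusted p = 0.0852), with the pericentral zone higher in 8 of 10 libraries. Mdm2 stood at -0.21 ± 0.11 (adjusted p = 0.203), higher pericentrally in 9 of 10 libraries. Cdkn1a lay at 0.23 ± 0.26 (adjusted p = 0.598).

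The last question was whether the zones differ in their daily course. None of the 8 genes had a zone-dependent rhythm by edgeR, against 0.0337% of 8907 genes, and DESeq2 also called 0 of the 8. At an unadjusted p under 0.05, 2 of the 8 genes passed, Cdkn1a (0.0123) and Btg1 (0.0476), against 545 of all 8907 genes. For Cdkn1a the UMIs were few: at ZT18 the periportal zone held 17 (A) and 13 (B) against 7 and 1 pericentrally, and at ZT6 it held 0 and 0 against 4 and 1. At ZT0, with 107 against 105 UMIs over 3 libraries, the zones were close. Its adjusted p was 0.658, and that of Btg1 was 0.794.

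Other cell cycle genes were compared as lists. Of 22 further genes of G1 entry (cyclins, CDKs, E2F and pocket proteins, CDK inhibitors), 13 were tested and 0 had a rhythm by edgeR, with 1 at an unadjusted p under 0.05 and 0 by DESeq2. With 5.14% of all genes called, 0 of 13 does not set the list apart. Its median log2 amplitude was 0.271 against 0.252 over all genes. For rhythm, 1816 of all 8908 genes stood at an unadjusted p under 0.05, and DESeq2 called 792. Between zones 2 of 13 passed, against 24.6% of all genes, both lower periportally (12.7% of all genes): Cdk6 (log2 -0.74 ± 0.10 SE, adjusted p = 1.44e-07) and Cdk2 (-0.64 ± 0.19, adjusted p = 0.0113). CDK6 is a partner of cyclin D1, and CDK2 is a target of p21.

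Genes of S phase and mitosis were sparse. Only 7 of 24 could be tested. The proliferation marker Mki67 gave 27 UMIs in all libraries together, Top2a 32 and Ccnb1 14, whereas thymidine kinase (Tk1) gave 727. By edgeR, 1 of the 7 differed among the 4 times, against 6.58% of all genes. It was the ribonucleotide reductase subunit Rrm2 (range 2.10 on the log2 scale, adjusted p = 0.0482). Between zones 1 of the 7 differed, against 24.6% of all genes. It was the replication helicase subunit Mcm6 (log2 -1.54 ± 0.27 SE periportally, edgeR adjusted p = 3.23e-05). Of 10 genes of the G2 checkpoint that act with or against Wee1, 5 were tested. Neither rhythm nor zone called any of the 5 in edgeR or DESeq2, with 1 and 0 at an unadjusted p under 0.05. Over all genes edgeR called 5.14% for rhythm and 24.6% between zones.

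The p53 pathway was compared because Cdkn1a and Mdm2 belong to it. Of 23 other genes of it, 17 were tested and 0 had a rhythm by edgeR, against 5.14% of all genes. At an unadjusted p under 0.05 stood 4 of the 17, against 1816 of all 8908 genes. DESeq2 called 1 of the 17, against 792 of all genes. The median log2 amplitude of the list was 0.297, near the 0.252 of all genes. Plk3, a stress-induced kinase, differed among the times (range 1.67, adjusted p = 0.0466). Between zones 3 of 17 passed, no more than the 24.6% of all genes, and all 3 were lower periportally: Trp53inp1 (log2 -0.39), the death receptor Fas (-0.38) and the pro-apoptotic Bax (-0.33).

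Relatives of Btg1 and partners and targets of Myc were compared next. Btg2, the closest relative of Btg1 in its family, differed among times (range 1.57, adjusted p = 0.00437), with 65.6 ± 16.2 CPM at ZT0 and 123 ± 0.76 at ZT6, then 42.9 ± 5.86 at ZT12 and 100.4 ± 14.3 at ZT18. Like Btg1 it was higher periportally (log2 0.75 ± 0.09 SE, adjusted p = 2.66e-08), as was Tob2 (0.36), which made 2 of 5 tested genes of the Btg/Tob list, both higher periportally, against 11.9% of all genes. None of those 5 had a rhythm by edgeR or DESeq2, with 1 at an unadjusted p under 0.05. Over all 8908 genes, edgeR called 5.14%, DESeq2 called 792, and 1816 stood at that unadjusted p. Of 7 tested genes of the Myc network, 1 was higher at ZT18 than at ZT6, against 2.35% of all genes: Mlx (log2 0.93 ± 0.23 SE, edgeR adjusted p = 0.0372). Of 9 tested Myc target genes 1 was rhythmic, against 5.14% of all genes. This was Odc1, the first enzyme of polyamine synthesis, which peaked at ZT 18.71 (log2 amplitude 0.78, edgeR adjusted p = 0.0283). Odc1 averaged 153.8 ± 5.85 CPM at ZT18 against 55.9 ± 4.24 at ZT6.

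Among 8 p38 and JNK pathway kinases downstream of Gadd45 proteins, 1 was rhythmic, against 5.14% of all genes. It was Map2k6, a kinase that activates p38, which peaked at ZT 11.53 (log2 amplitude 1.11, edgeR adjusted p = 0.0179). Map2k6 averaged 9.08 ± 1.72 CPM at ZT12 against 1.78 ± 0.67 at ZT0 (log2 2.13 ± 0.39 SE, edgeR adjusted p = 0.00711). Between zones 1 of the 8 differed, against 24.6% of all genes. It was Map2k3, lower periportally (log2 -0.27, edgeR adjusted p = 0.00333), the direction of Gadd45a and the opposite of that of Gadd45g. Of 9 tested FoxO target genes 1 was rhythmic, against 5.14% of all genes: the gluconeogenic enzyme Pck1, which peaked at ZT 10.22 (edgeR adjusted p = 0.00925). Between zones 4 of the 9 differed, 2 in each direction, against 24.6% of all genes. The clock genes served as a reference for the time labels: 14 of 16 were rhythmic, and Arntl peaked at ZT 21.61 with 20.9 ± 8.51 CPM at ZT0 against 1.89 ± 0.49 at ZT6. Nr1d1, which represses Arntl, peaked at ZT 7.03, and Dbp at ZT 9.46.

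Immediate early genes, which share inputs with Myc and the Gadd45 genes, had no rhythm call among 13 tested by edgeR, with 3 at an unadjusted p under 0.05 and 1 by DESeq2. Over all 8908 genes 5.14% had a rhythm call in edgeR, 1816 stood at an unadjusted p under 0.05, and DESeq2 called 792. Among the 4 times 4 of 13 differed, against 6.58% of all genes: Nr4a1, Socs3, Fos and Jun. Nr4a1 and Fos were highest at ZT6 (36.4 ± 6.40 and 99.9 ± 42.9 CPM), and Jun at ZT18 (115 ± 5.52 CPM). Their summed level was 574 to 1115 CPM at ZT0, 986 to 1108 at ZT6, 518 to 659 at ZT12 and 648 to 684 at ZT18. The part of tissue handling in the levels of Myc, Btg2 or the Gadd45 genes was not tested.

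The genes most like each member over the 10 libraries were listed by Pearson's r of log2(CPM + 1) among 6315 genes, as a description, since all share the same 4 times. Nearest to Cdkn1a were Stx7 (r = 0.947), Proser2 (0.947) and Ubqln1 (0.945), and nearest to Ccnd1 were Vwce (0.922), Cdkn2aipnl (0.896) and Bcas3 (0.890). For Myc they were Icmt (0.928), Usp47 (0.926) and Pabpc1 (0.911), and for Btg1 Rnf141 (0.950), Kank1 (0.932) and G3bp2 (0.899). For Ccng2 they were Tmem33 (0.913), Hsp90b1 (0.910) and Cyp2c70 (0.891), and for Mdm2 Echdc2 (0.941), Aldh1a7 (0.915) and Hdhd2 (0.913). Gadd45a lay nearest to Neat1 (0.854), Tmem260 (0.840) and Topors (0.820), and Gadd45g to Slc25a25 (0.911), Zcrb1 (0.902) and Palmd (0.894). Candidates had to average at least 10 CPM, so Cdkn1a, Wee1 and Gadd45b could not be listed for another gene.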

How the data were processed

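Single-cell RNA was measured in 10 hepatocyte libraries, grouped by the titles in the labels. The authors deposited raw UMI counts per gene and cell (whole numbers with unequal totals per cell, from the values). Cell Ranger and the builds mm10 and hg19 are named, with no role, per the submitters' processing notes; the cell filter is not given in the sources used here. All 18378 cells were kept, without a doublet caller; dropping the 5% richest in UMIs was an alternative.

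Counts were summed per library, or per zone (3 equal parts of the cell order), and tested with edgeR 4.0.16 (R 4.3.3; glmQLFit, glmQLFTest, TMM) on genes averaging 3 CPM or more, with Benjamini-Hochberg adjustment over all of them and a threshold of 0.05. Rhythm was tested with 2 degrees of freedom (a sine and a cosine with a period of 24 h); zones had the library as a block. Order, per library: mean z-score of log(1 + 10000 × UMI share) of 8 periportal landmarks (Ftcd, Pigr, Hal, Asl, Ass1, Ctsc, Cyp2f2, Hsd17b13) minus the same for 8 pericentral ones (Rgn, Lect2, Cyp1a2, Cyp2e1, Gulo, Oat, Aldh1a1, Mgst1). Landmarks are left out of counts of calls. DESeq2 1.42.0, other filters and scalings were alternatives, but the middle-zone test was not run in DESeq2. The code was tested on simulated data.

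All 10 genes are named throughout; of each list, the called genes, at most 4 per comparison; and the 3 genes most alike. Members and lists were chosen with earlier results of these data known. Deviations from group means of same-letter libraries at ZT0 and ZT12 correlated with r of 0.241, 0.427 and 0.486 across genes. The letters were therefore taken to pair them, and the blocked fit stands beside that comparison. ZT6 and ZT18 libraries did not pair (r = 0.033). The block was also run on the other comparisons of times, where the letters of ZT6 and ZT18 have no such pairing behind them. Gene positions are from GENCODE M21. Counts of 0 allow up to 3 UMIs, counting error only.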

Additional observations from a re-analysis of the deposited data

Results flagged for a closer look

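The zone difference of Btg1 had another sign at ZT6 than at the other times. On the log2(CPM + 1) scale, periportal minus pericentral averaged 0.58 at ZT0 (higher in 3 of 3 libraries), 0.59 at ZT12 (3 of 3) and 0.53 at ZT18 (2 of 2), against -0.079 at ZT6 (0 of 2). It stands here because all libraries of ZT6 moved one way and all libraries of each other time the opposite way. The difference of ZT6 from each of those times was not tested by itself. The test of a zone-dependent rhythm of Btg1 gave an adjusted p of 0.794 (edgeR). Zone differences in the 2 ZT6 libraries were small, -0.094 (A) and -0.064 (B).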

How the results depend on the processing

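The count of members passing moved with the processing both between times and between zones. For the 24-h rhythm, 2 of the members passed with library size alone, 2 with every gene seen in at least 2 libraries, 2 without the 5% of cells with the most UMIs, 3 by DESeq2, and 0 among genes of at least 10 CPM, where Cdkn1a is not tested. For differences among the 4 times, 4 passed with the wider gene set, 4 by DESeq2, 1 at 10 CPM and 1 without both ZT18 libraries. For ZT12 against ZT0, 2 passed with library size alone, 2 with the wider gene set, 2 without the 5% richest cells and 0 at 10 CPM; for ZT18 against ZT6, 0 at 10 CPM. With the replicate block of library letters, 3 members passed for rhythm, 5 among the 4 times, 3 for ZT12 against ZT0 and 1 for ZT18 against ZT6. Letters of the ZT6 and ZT18 libraries did not pair (r = 0.033), so blocked counts that use those times are of limited weight. Leaving out each library in turn gave 1 to 2 for rhythm, 1 to 3 among the times, 1 to 2 for ZT12 against ZT0, 0 to 1 for ZT18 against ZT6, 3 to 5 between zones, 1 for the middle zone and 0 for zone-dependent rhythm. Between zones, library size alone gave 7 of 8, adding Myc, Ccng2 and Mdm2 as lower periportally, with 2525 of 8907 genes called against 2194. That scaling shifts the median of all genes by -0.10 between zones and by 0.13 from ZT0 to ZT12. It puts 27.8% of zone calls on the periportal side against 48.3%, and 66.7% of ZT12 calls on the higher side against 50.7%. Over all genes, rhythm calls were 458, against 792 by DESeq2, 749 with the block, 231 without ZT18 and 228 at the lowest without 1 library; among the times 586, against 989 with the block, 231 without ZT18 and 245 at the lowest; ZT12 against ZT0 306, against 504 with the block; ZT18 against ZT6 338, against 730 with the block and 50 to 80 without a library of either time. Zone-dependent rhythm calls ran from 0 to 37 and middle-zone calls from 30 to 97. No value of a member that passed a test changed its sign. The causes were not tested.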
